A study of Mus musculus with 56 samples.

Results

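The comparison is between adrenal glands of Znrf3 cKO females and of control females at 6 weeks of age, taken by its 8 columns of the deposited count table: 4 cKO libraries and 4 control libraries out of 56 samples in the series. Each library came from the whole gland of 1 mouse of the C57BL/6J strain, and the mice were described as independent animals and littermates. The cKO females carried SF1-Cre and floxed Znrf3 on both alleles (SF1-Cre+; Znrf3 Fx/Fx). The controls were SF1-Cre negative, and their Znrf3 alleles were not given in the sources used here, so an effect of Cre itself cannot be told apart from the loss of Znrf3. At this age the library numbers run through the controls and then the cKO mice, so any order of handling that they mark cannot be told apart from genotype either. Mice were killed by decapitation and the glands were snap frozen. By its title the series concerns senescence, immune remodelling and adrenal cancer in both sexes, and 6 weeks is its earliest age in females.

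ZNRF3 is a membrane ubiquitin ligase that clears Frizzled receptors from the cell surface. R-spondins, bound to Lgr receptors, remove ZNRF3 and so keep Frizzled receptors in place, which raises the response of a cell to Wnt ligands. In the adrenal cortex, R-spondin 3 from the capsule and Wnt ligands act on the outermost cells, and these form the zona glomerulosa, the source of aldosterone. The zona fasciculata beneath it makes glucocorticoids, the X-zone is an inner cortical layer of young female mice that derives from the foetal adrenal, and the medulla in the centre holds chromaffin cells of neural crest origin. The SF1-Cre driver is active in the steroidogenic cells of the cortex, not in chromaffin cells, glia, vessels or blood cells.

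Library totals over genes were 40441341 to 51604620 counts in the 4 cKO libraries and 41888675 to 44837650 counts in the 4 controls. Fewer genes had at least 1 count in the cKO libraries (23588 to 23926) than in the controls (24218 to 24740), and ribosomal protein genes took 2.85% ± 0.253 of the counts in cKO and 2.18% ± 0.138 in control libraries (SD, n = 4 each). Both measures separated the groups fully, at the smallest two-sided p an exact permutation test of 4 against 4 can give (0.0286), and neither passed after adjustment over 6 library measures (0.0857). cKO replicate 4 stood apart from the other cKO libraries on the second principal component, at -25.7 against 6.83 to 12.96 for the other 3 cKO libraries, so each count below that moves by more than 1.5 times without it is given with and without it. The cortical genes Star and Hsd3b1 and the medullary gene Chga were read in every library, while the kidney markers Umod, Slc34a1, Kap and Lrp2 were too low to test. Of 22 genes of neighbouring tissues and blood, 15 could be tested and none passed (edgeR; 1 at an unadjusted p under 0.05 and 1 by DESeq2), although 1 rose without cKO replicate 1, 2 or 3 and 1 fell without control replicate 1. Their summed level was 58.5 to 151 CPM in cKO libraries and 61.4 to 366 CPM in controls.

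The groups differed at 6220 of the 18645 genes tested, at an adjusted p under 0.05 (edgeR's quasi-likelihood test, Benjamini-Hochberg adjustment over all tested genes), which is 33.4% of them. Of these, 2652 were higher in cKO (14.2% of tested genes) and 3568 were lower (19.1%). The falls were deeper than the rises: 2042 genes were lower by at least 2-fold and 319 were higher by as much, and at 8-fold or more the counts were 433 lower and 27 higher. With a test against a minimum change of 1.5-fold, 201 genes were higher and 1834 lower. All 4 cKO libraries lay above all 4 controls for 12.6% of tested genes and below them for 17.9%. The median log2 fold change over all tested genes was 0.01. Levels are shares of a library's counts. For a fall, fewer cells of a type, less RNA per cell and more RNA from other cells cannot be told apart in whole-gland RNA. For a rise, the opposites cannot be told apart either. This holds for every gene group below. The counts of each gene list below are to be read beside the shares over all tested genes, 14.2% higher and 19.1% lower.

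**Figure D1:**
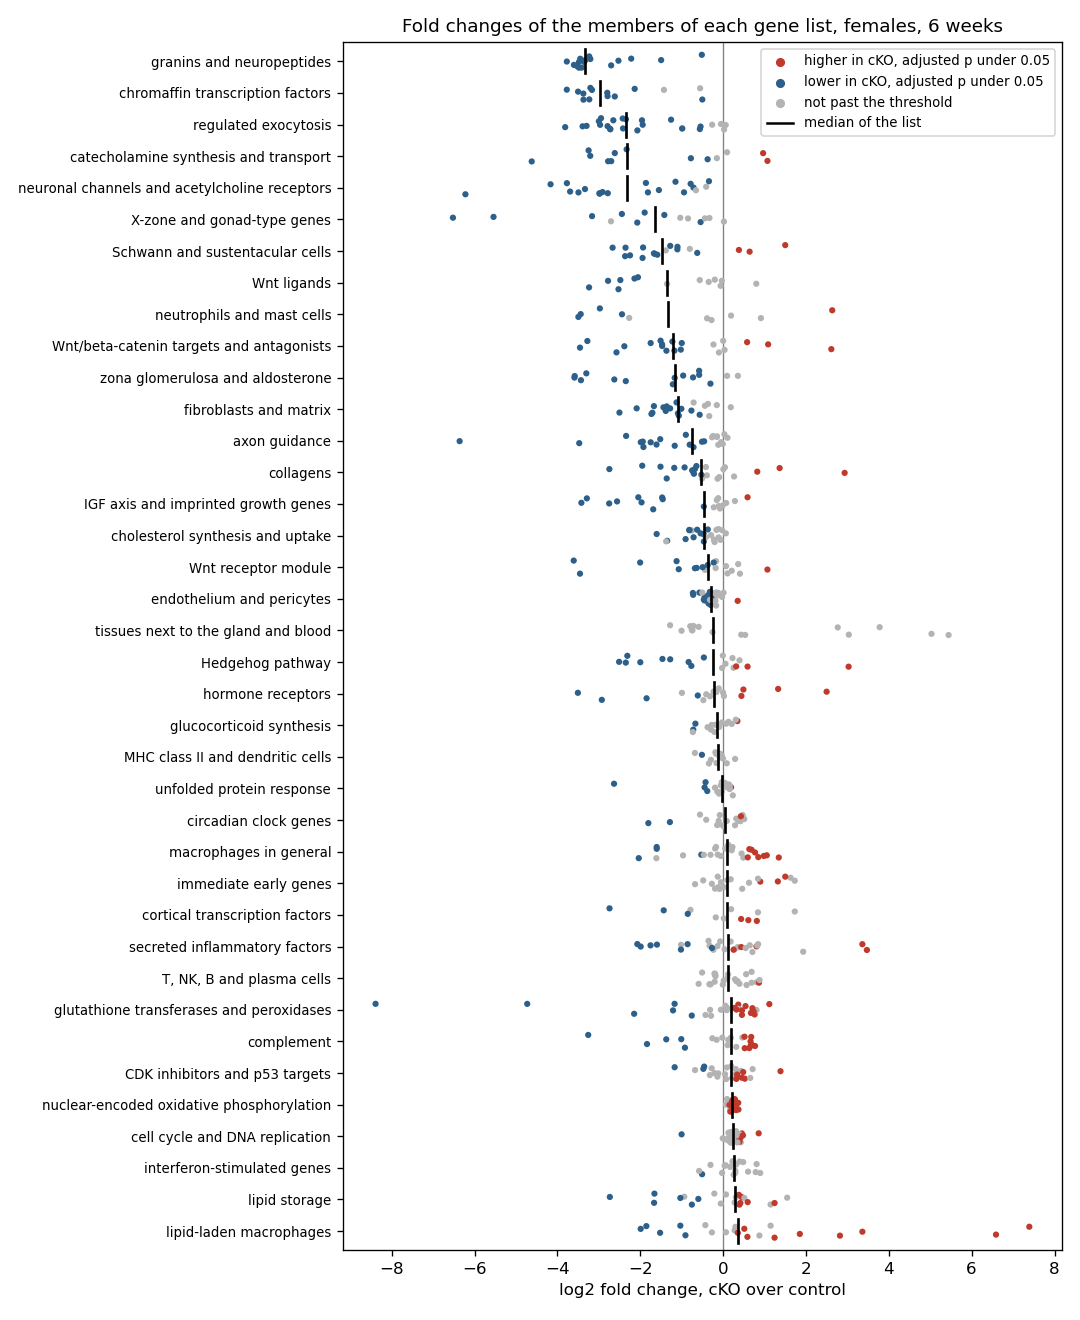
Log2 fold changes of cKO over control (x axis) for the tested members of each gene list (y axis, lists ordered by median); each point is 1 gene, red where it was higher and blue where it was lower at an adjusted p under 0.05, and the black bar is the median of the list. Lists of medullary genes have medians between -2.32 and -3.34, while the median of lipid-laden macrophage genes is 0.35.

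Znrf3 itself (chr11:5276324-5444847 in GRCm38) was read at 101, 82.5, 67.9 and 55.6 CPM in the cKO libraries, against 40.4, 33.5, 36.4 and 35.8 CPM in the controls. CPM are counts scaled to library size by the trimmed mean of M-values, and the 4 values follow replicates 1 to 4. The whole-gene count was thus higher in cKO (log2 fold change 1.07 ± 0.13 SE, adjusted p = 1.21e-06). It covers all exons, and which of them are floxed was not given in the sources used here, so it is no check of the deletion, and cKO stands for the label.

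The receptor module around ZNRF3 was mostly lower in cKO, beside 19.1% lower and 14.2% higher over all tested genes. Of 19 tested members (R-spondins, Lgr, Lrp and Frizzled receptors, Znrf3 and Rnf43), 10 fell and only Znrf3 rose, with a median log2 fold change of -0.37; without cKO replicate 4, without control replicate 2 or without control replicate 4, 2 rose. Rspo3 (chr10:29452416-29535867), the R-spondin of the adrenal capsule, stood at 3.98, 2.44, 2.83 and 2.36 CPM in cKO libraries, against 31.5, 31.3, 35.8 and 42.9 CPM in control libraries. The groups did not overlap (log2 fold change -3.61 ± 0.30 SE, adjusted p = 5.07e-09). Rspo1 was lower as well, at 0.755, 0.567, 0.775 and 1.61 CPM in cKO and 2.64, 3.34, 4.7 and 4.19 CPM in controls (log2 fold change -2.0 ± 0.33 SE, adjusted p = 5.98e-05). Lgr5, a receptor for R-spondins, fell by 3.46 on the log2 scale. Among the Wnt receptors, Fzd2 fell to 6.81 ± 1.56 CPM in cKO, against 14.8 ± 2.85 CPM in controls (SD, n = 4 each), and the co-receptor Lrp6 changed less (log2 fold change -0.37 ± 0.08 SE, adjusted p = 0.00112). Rnf43, the paralog of Znrf3 with the same activity on Frizzled receptors, was read at 2.59, 1.7, 13.6 and 14.1 CPM in cKO and 10.5, 10.8, 8.27 and 13.6 CPM in controls. The cKO libraries split for this gene, with replicates 1 and 2 below every control and replicates 3 and 4 near the highest control, and the difference did not pass the test (adjusted p = 0.492).

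The Wnt ligands that changed were all lower in cKO, beside 19.1% lower and 14.2% higher over all tested genes. Of 13 tested ligands, 6 fell and none rose (median log2 fold change -1.35), and the other 6 of the list's 19 ligands were too low to test. Wnt2b had 4.21, 2.54, 4.94 and 0.485 CPM in cKO libraries and 26.8, 23.1, 29.1 and 35.3 CPM in control libraries. Every cKO library was below every control, and cKO replicate 4 was the lowest (log2 fold change -3.24 ± 0.39 SE, adjusted p = 9.47e-07). Wnt6 stood at 0.892, 0.763, 1.23 and 0.971 CPM in cKO, against 4.67, 6.98, 7.08 and 7.75 CPM in controls (log2 fold change -2.78 ± 0.25 SE, adjusted p = 1.29e-08). Wnt10a was low in both groups, at 0.0441 to 0.194 CPM in cKO and 0.594 to 0.951 CPM in controls (log2 fold change -2.48 ± 0.43 SE, adjusted p = 9.5e-05). Wnt4, a ligand made by zona glomerulosa cells, had 286, 333, 332 and 364 CPM in cKO and 306, 383, 366 and 317 CPM in controls, which overlap (adjusted p = 0.749).

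Genes that respond to Wnt/beta-catenin signalling were mostly lower, but not all of them. Of 20 tested targets and secreted antagonists, 13 fell and 3 rose, with a median log2 fold change of -1.20. Over all tested genes, 19.1% were lower and 14.2% higher. The counts of this list were the same in each of the 8 fits that left out 1 library. Among the falls, Nkd1, which encodes a feedback inhibitor of the pathway, had 27.8, 18.5, 21.4 and 16.1 CPM in cKO and 60.8, 69.4, 71.3 and 80.1 CPM in controls (log2 fold change -1.75 ± 0.16 SE, adjusted p = 1.76e-08). Notum, which encodes an enzyme that inactivates Wnt ligands, fell by 2.38 on the log2 scale, to 0.919 to 1.84 CPM in cKO, against 5.65 to 8.68 CPM in controls. Lef1, a transcription factor partner of beta-catenin, stood at 4.74, 5.54, 2.25 and 2.34 CPM in cKO and 10.7, 9.14, 11.1 and 10.4 CPM in controls, with cKO replicates 3 and 4 the lowest (log2 fold change -1.47 ± 0.21 SE, adjusted p = 1.13e-05). Ccnd1, which encodes cyclin D1, had 84.2 ± 7.48 CPM in cKO and 190.2 ± 17 CPM in controls (SD, n = 4 each). The 3 that rose were Myc, Tnfrsf19 and Sfrp2. Myc, a growth-promoting transcription factor, had 161, 153, 132 and 122 CPM in cKO, against 55.7, 74.8, 73.8 and 62.8 CPM in controls, and the groups did not overlap (log2 fold change 1.09 ± 0.20 SE, adjusted p = 0.00022). Tnfrsf19, a receptor of the tumour necrosis factor family, had 279, 320.4, 277 and 211 CPM in cKO and 185, 181, 180 and 181 CPM in controls (log2 fold change 0.58 ± 0.10 SE, adjusted p = 6.96e-05). Sfrp2, a secreted Wnt antagonist, was at 1.01, 4.79, 0.775 and 2.07 CPM in cKO and 0.333, 0.337, 0.333 and 0.408 CPM in controls; its log2 fold change was 2.61, and 1.88 without cKO replicate 2, the highest library.

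Zona glomerulosa genes were lower as a group. Of 15 tested genes, 13 fell and none rose, beside 19.1% lower and 14.2% higher over all tested genes. The list's median log2 fold change was -1.17. Beyond the aldosterone synthase gene Cyp11b2 (log2 fold change -3.43 ± 0.38 SE), the falls included a calcium channel gene and a calcium sensor gene. Cacna1d, a voltage-gated calcium channel subunit, had 4.16, 2.68, 2.32 and 2.93 CPM in cKO and 17.3, 17, 17.8 and 22.6 CPM in controls (log2 fold change -2.63 ± 0.17 SE, adjusted p = 1.76e-10). Vsnl1, a calcium sensor enriched in this zone, had 7.51, 4.75, 6.78 and 3.22 CPM in cKO and 56.1, 82.5, 72.2 and 56.7 CPM in controls (log2 fold change -3.59 ± 0.22 SE, adjusted p = 1.25e-10). The groups did not overlap for either gene. Dab2, an endocytic adaptor used as a zone marker, fell less, to 292, 289.8, 310.3 and 266 CPM in cKO, against 668, 653, 637 and 646 CPM in controls (log2 fold change -1.17 ± 0.11 SE, adjusted p = 1.4e-08). Kcnj5, a potassium channel, was low in both groups, at 0.485 to 2.54 CPM in cKO and 0.911 to 1.4 CPM in controls, and did not pass the test (adjusted p = 0.42).

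Hedgehog signalling runs in the adrenal from Sonic hedgehog of outer cortical cells to Gli1-expressing cells of the capsule. Of 18 tested pathway genes, 9 fell and 3 rose, beside 19.1% lower and 14.2% higher over all tested genes. The list's median log2 fold change was -0.24, and 5 of its members rose without cKO replicate 4. The ligand Shh had 12.1, 6, 8.62 and 4.9 CPM in cKO and 38.9, 33.8, 38.3 and 50.02 CPM in controls (log2 fold change -2.35 ± 0.24 SE, adjusted p = 7.66e-08). Genes that respond to Hedgehog ligands were lower as well. Gli1, its transcription factor and target, had 2.86, 2.25, 2.61 and 1.32 CPM in cKO and 7.58, 8.04, 10.1 and 10.5 CPM in controls (log2 fold change -2.0 ± 0.31 SE, adjusted p = 2.63e-05). Hhip, a target that binds and blocks the ligand, had 4.28, 2.84, 3.03 and 1.35 CPM in cKO and 20.7, 16.8, 14.9 and 13.1 CPM in controls (log2 fold change -2.51 ± 0.28 SE, adjusted p = 3.34e-07). Ptch1, the receptor, had 66.5, 63.9, 60.9 and 23.6 CPM in cKO and 88.6, 81.6, 93.9 and 102 CPM in controls; cKO replicate 4 was the lowest library, and the gene was called in all 8 fits that left out 1 library but not when only the 8 libraries of this age were fitted (adjusted p = 0.0532). The Scube genes, whose products carry secreted Hedgehog ligand, went different ways. Scube1 had 138, 144, 106 and 112 CPM in cKO and 18.4, 12.7, 20.9 and 9.4 CPM in controls (log2 fold change 3.03 ± 0.29 SE, adjusted p = 3.43e-08), and Scube2 had 0.0686 to 0.145 CPM in cKO and 0.385 to 0.642 CPM in controls (log2 fold change -2.31 ± 0.46 SE, adjusted p = 0.00038).

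**Figure D2:**
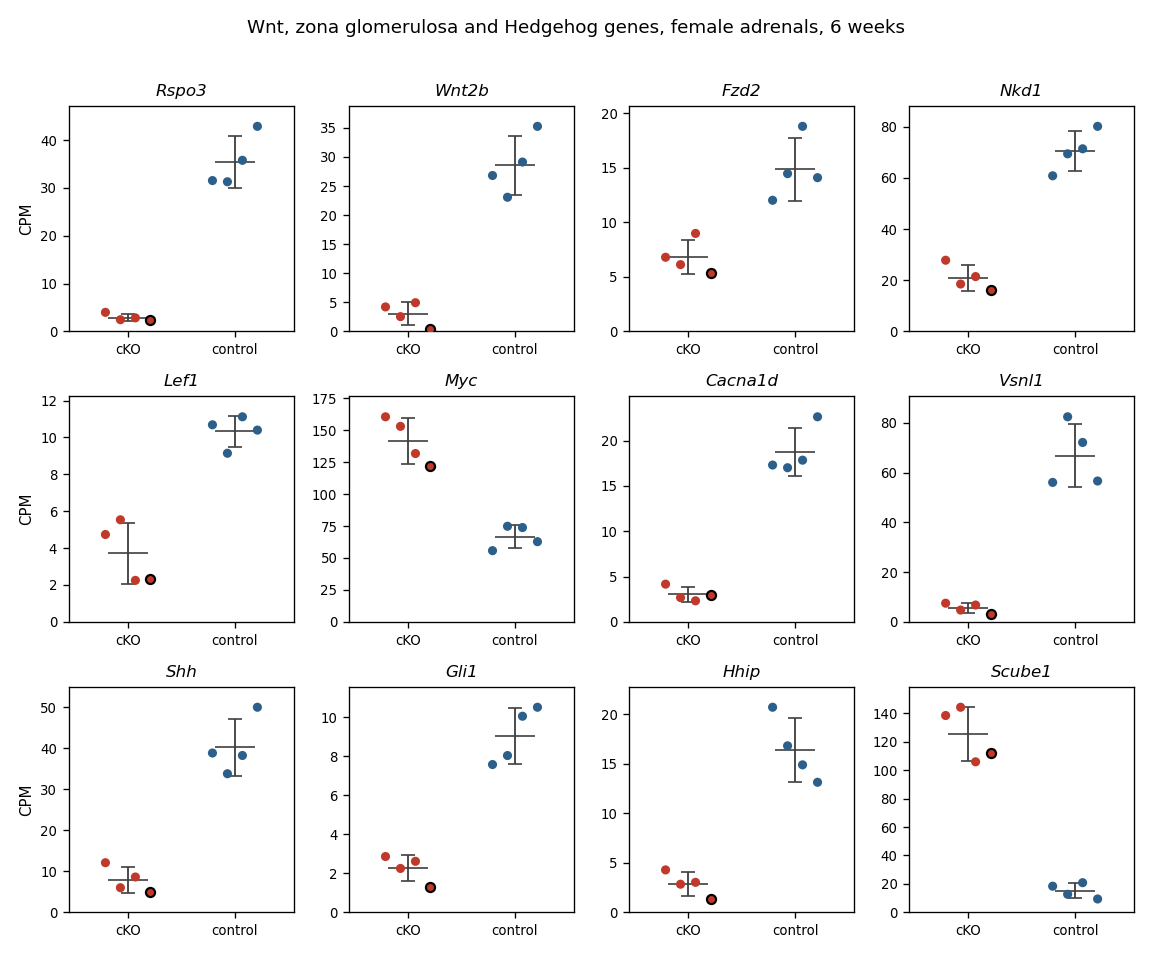
CPM (y axis, from 0) of 12 genes of the Wnt pathway, the zona glomerulosa and the Hedgehog pathway in the 4 cKO (left) and 4 control (right) libraries; each point is 1 mouse, the bar is the mean with its SD, and cKO replicate 4 is outlined. Myc and Scube1 are higher in cKO and the other 10 genes are lower, with no overlap between the groups in any of the 12.

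Few genes of glucocorticoid synthesis changed. Of 16 tested genes, 1 rose and 2 fell, beside 14.2% higher and 19.1% lower over all tested genes. The list's median log2 fold change was -0.14. Among the fits that left out 1 library, 2 rose without cKO replicate 1, cKO replicate 3 or control replicate 2, none rose without control replicate 3, and 1 fell without cKO replicate 1, cKO replicate 3 or control replicate 1, 2 or 3. Hsd3b1, which encodes an early step of steroid synthesis, had 17929, 19120.4, 18304 and 20770.2 CPM in cKO and 15328, 16529, 12625 and 15451 CPM in controls (log2 fold change 0.34 ± 0.11 SE, adjusted p = 0.0148); it was not called without control replicate 3 (adjusted p = 0.0637) or when only the 8 libraries were fitted (adjusted p = 0.0753). Star, which moves cholesterol into mitochondria, had 6694, 5788, 7894 and 9902 CPM in cKO and 12878, 15882, 12062 and 9063 CPM in controls. The groups overlapped for Star, cKO replicate 4 lying above control replicate 4 (log2 fold change -0.72 ± 0.20 SE, adjusted p = 0.00767). Scarb1, the receptor that takes up cholesterol from lipoproteins, was lower in cKO (log2 fold change -0.67 ± 0.24 SE, adjusted p = 0.0381), and was called in 2 of the 8 fits that left out 1 library, with adjusted p up to 0.103. The transcription factors of the cortex were split. Nr5a1, which encodes SF1, had 1949.8 ± 366 CPM in cKO and 1109 ± 226 CPM in controls (SD, n = 4 each), and Nr0b1, which encodes the SF1 partner DAX1, had 73.9, 83.8, 91.3 and 87.4 CPM in cKO and 55.9, 61.8, 53.5 and 49.4 CPM in controls (log2 fold change 0.61 ± 0.13 SE, adjusted p = 0.00064). In contrast, Nr2f2, which encodes COUP-TFII and marks capsular and stromal cells, fell to 64.6, 57.4, 63.7 and 73.5 CPM in cKO, against 107, 127, 126 and 108 CPM in controls (log2 fold change -0.85 ± 0.08 SE, adjusted p = 4.76e-08). Tcf21, a capsular progenitor factor, fell as well (log2 fold change -1.43 ± 0.26 SE, adjusted p = 0.000173).

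X-zone markers were lower in the cKO libraries. Of 14 tested X-zone and gonad-type genes, 8 fell and none rose, beside 19.1% lower and 14.2% higher over all tested genes. The list's summed level was 53.01 to 81.6 CPM in cKO libraries, against 1552 to 3546 CPM in controls, most of it Akr1c18. Akr1c18, which encodes 20-alpha-hydroxysteroid dehydrogenase, had 31.6, 31.6, 5.08 and 9.22 CPM in cKO and 1237, 1361, 1351 and 3199 CPM in controls (log2 fold change -6.52 ± 0.87 SE, adjusted p = 3.43e-06). It belongs to a family of close copies, and how reads shared between copies were counted was not given in the sources used here. Pik3c2g, a lipid kinase, had 11.9, 3.01, 2.01 and 2.32 CPM in cKO and 261, 188, 162 and 284 CPM in controls. Its log2 fold change was -5.54, and -6.50 without cKO replicate 1, the highest of the cKO libraries for this gene. Genes outside the lists that fell by the largest folds included Car8, Gjb2 and Padi2. Car8, a protein related to carbonic anhydrases, had 2.29, 2.5, 2.15 and 3.35 CPM in cKO and 47.9, 40.5, 43 and 112 CPM in controls, with control replicate 4 far above the other controls (log2 fold change -4.56 ± 0.38 SE, adjusted p = 5.58e-09). Gjb2, which encodes connexin 26, had 0.366, 0.372, 0.266 and 0.309 CPM in cKO and 12.7, 6.5, 13.8 and 12.1 CPM in controls (log2 fold change -5.09 ± 0.46 SE, adjusted p = 1.54e-08). Padi2, an enzyme that converts arginine to citrulline in proteins, had 1.01, 1.56, 0.92 and 1.13 CPM in cKO and 29.99, 16.5, 28.5 and 30.5 CPM in controls (log2 fold change -4.50 ± 0.44 SE, adjusted p = 3.63e-08). F5, which encodes coagulation factor V, had 0.0915, 0.0587, 0.266 and 0.0882 CPM in cKO and 9.33, 3.34, 11.3 and 6.14 CPM in controls (log2 fold change -5.90 ± 0.73 SE, adjusted p = 1.3e-06); the log2 fold change was -6.53 without cKO replicate 3, the highest of the cKO libraries.

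Hormone receptors changed in both directions, 4 higher and 4 lower of 17 tested, beside 14.2% higher and 19.1% lower over all tested genes. These counts were the same in all 8 fits that left out 1 library. Vipr1, a receptor for vasoactive intestinal peptide, had 5.74, 2.56, 7.48 and 3.44 CPM in cKO and 0.644, 0.842, 0.974 and 0.929 CPM in controls (log2 fold change 2.50 ± 0.38 SE, adjusted p = 1.98e-05). Adcyap1r1, the receptor for the related peptide PACAP, moved the other way, at 9.24, 8.31, 15.2 and 14 CPM in cKO and 44.6, 34.6, 34.4 and 54.4 CPM in controls (log2 fold change -1.85 ± 0.17 SE, adjusted p = 2.61e-08). Esr1, the oestrogen receptor gene, had 46.3, 48.5, 26.1 and 28.5 CPM in cKO and 11.5, 15.2, 21 and 11.9 CPM in controls, with no overlap (log2 fold change 1.33 ± 0.35 SE, adjusted p = 0.00482). The growth hormone receptor gene Ghr rose by 0.49 on the log2 scale. The glucocorticoid receptor gene Nr3c1 had 24.4, 30.1, 26.8 and 20.5 CPM in cKO and 35.6, 36.5, 43.1 and 40.2 CPM in controls (log2 fold change -0.61 ± 0.12 SE, adjusted p = 0.000254).

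Cholesterol synthesis genes were lower where they changed. Of 23 tested genes, 11 fell and none rose, beside 19.1% lower and 14.2% higher over all tested genes. The list's median log2 fold change was -0.47. Sqle, which encodes squalene epoxidase, had 29.8, 30.9, 20.1 and 13 CPM in cKO and 56.4, 46.4, 60.9 and 75.7 CPM in controls (log2 fold change -1.35 ± 0.27 SE, adjusted p = 0.000444). Dhcr7, which carries out a final step, had 209, 266, 207 and 246 CPM in cKO and 385, 436, 353 and 458 CPM in controls (log2 fold change -0.82 ± 0.16 SE, adjusted p = 0.000392). Mvd and Nsdhl, other enzymes of the pathway, had log2 fold changes of -0.91 ± 0.18 and -0.71 ± 0.14 (± SE). Lipid storage genes were split, 6 higher and 6 lower of 21 tested, beside 14.2% higher and 19.1% lower over all tested genes. Plin2, the coat protein of lipid droplets in most cells, had 342, 337, 318 and 361 CPM in cKO and 252, 258, 256 and 232 CPM in controls (log2 fold change 0.44 ± 0.06 SE, adjusted p = 1.39e-06), and Soat1, which esterifies cholesterol for storage, rose by 0.38 on the log2 scale. Plin4, another droplet coat protein, had 4.21, 3.58, 3.15 and 3.79 CPM in cKO and 17.5, 10.7, 45.6 and 24.3 CPM in controls (log2 fold change -2.73 ± 0.50 SE, adjusted p = 0.000172), and Mgll, which breaks down monoacylglycerol, was lower (log2 fold change -0.75 ± 0.16 SE, adjusted p = 0.000641).

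Glutathione genes moved in both directions. Of 26 tested genes, 11 rose and 6 fell, beside 14.2% higher and 19.1% lower over all tested genes. Gstm1, a transferase of the mu class, had 619.9, 527, 495 and 568 CPM in cKO and 245, 253, 261 and 259.8 CPM in controls, and the groups did not overlap (log2 fold change 1.12 ± 0.11 SE, adjusted p = 2.83e-08). Gclm, the regulatory subunit of the enzyme that makes glutathione, had 94.6, 83, 83.2 and 83.1 CPM in cKO and 63.2, 62, 67.9 and 58 CPM in controls (log2 fold change 0.45 ± 0.08 SE, adjusted p = 0.000203). Hmox1, which encodes haem oxygenase 1, was higher too (log2 fold change 0.74 ± 0.19 SE, adjusted p = 0.00509). Gpx3, a secreted peroxidase, had 33.8, 38.5, 37.2 and 48.8 CPM in cKO and 197, 91.3, 288 and 126 CPM in controls (log2 fold change -2.15 ± 0.27 SE, adjusted p = 1.59e-06). The alpha-class transferase Gsta3 fell by 4.73 on the log2 scale, and Gsta2 was at 0 in all 4 cKO libraries, against 0.644, 0.385, 1.57 and 1.45 CPM in controls. Over the groups, Gsta2 had 0 counts in cKO and 175 in controls, which is at least 61.9-fold lower in cKO against a floor of 3 counts over the group. The mu and alpha classes are families of close copies, so reads may be split between members.

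The 5 lists of medullary genes had the lowest medians of the 38 lists. Their members were chosen with earlier results of these data known, so this ranking describes the lists and is no test. Of 13 genes for the synthesis, storage and breakdown of catecholamines, 9 fell and 2 rose (median log2 fold change -2.33). All 16 tested genes for granins, neuropeptides and their processing fell, with a median log2 fold change of -3.34, as did 12 of 14 chromaffin transcription factors (median -2.98), 20 of 25 genes of regulated exocytosis (median -2.35) and 18 of 20 genes for neuronal channels and acetylcholine receptors (median -2.32). None rose in the last 4 lists. Without cKO replicate 4 the counts of falls were 9, 16, 12, 20 and 18, and the summed level of the granin list was 980.5 to 1274 CPM in cKO, against 4846 to 5994 CPM in controls.

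Among the enzymes, Th, the rate-limiting step of catecholamine synthesis, had 32.7, 15.3, 25.6 and 26.3 CPM in cKO and 204, 216, 206 and 322 CPM in controls (log2 fold change -3.25 ± 0.29 SE, adjusted p = 1.53e-08). Dbh, which makes noradrenaline, had 48.3, 24.7, 38.1 and 36.9 CPM in cKO and 254, 226, 228 and 306 CPM in controls (log2 fold change -2.78 ± 0.27 SE, adjusted p = 3.02e-08). Pnmt, which makes adrenaline from noradrenaline, had 6.16, 1.37, 5.28 and 5.21 CPM in cKO and 125, 117, 93.8 and 105 CPM in controls (log2 fold change -4.62 ± 0.40 SE, adjusted p = 7.18e-09). In all 3 genes cKO replicate 2 was the lowest library. Maoa, a monoamine oxidase that breaks catecholamines down and is also made outside chromaffin cells, was higher, with 167, 136, 129 and 131 CPM in cKO and 65.2, 64.9, 67.5 and 70.3 CPM in controls (log2 fold change 1.07 ± 0.15 SE, adjusted p = 9.42e-06).

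The granin genes and their convertase fell together. Chgb, a granin that fills secretory granules, had 209, 111, 163 and 172 CPM in cKO and 1837, 1662, 1738 and 2091 CPM in controls (log2 fold change -3.48 ± 0.29 SE, adjusted p = 4.47e-09). Scg2 had 74.4, 43, 63.1 and 62.5 CPM in cKO and 589.7, 414, 554 and 726 CPM in controls (log2 fold change -3.23 ± 0.26 SE, adjusted p = 2.94e-09). Pcsk1, which cleaves prohormones in the granule, had 2.2, 1.56, 2.32 and 2.38 CPM in cKO and 24.3, 17.5, 24.7 and 31.3 CPM in controls (log2 fold change -3.53 ± 0.25 SE, adjusted p = 5.69e-10). Npy, a peptide stored with catecholamines, fell by 3.60 on the log2 scale, and Cpe, a carboxypeptidase also used outside the medulla, fell by 0.51. Each cKO library was below each control for these 5 genes, and cKO replicate 2 was the lowest for the first 4.

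The promoters of these genes are shown because 4 of the 13 windows found for the granin list, those of Cartpt, Chgb, Pcsk1 and Scg2, hold the full cyclic AMP response element TGACGTCA, a palindrome that reads the same on both strands and that binds CREB family factors. Among the 8 windows of the catecholamine list, those of Slc18a2 and Th hold it. The other medullary lists held it in 0 of 8 windows for chromaffin transcription factors and 1 of 19 for regulated exocytosis. For neuronal channels and acetylcholine receptors it was in 0 of 15 windows. A window is 250 bases before to 50 after a gene's start in RefSeq's table for GRCm38.p6. The element was present in 1.88% of all 27025 windows and in 3.02% of the 12559 windows matched to tested genes. It was in 3.71% of the windows of genes called higher and in 2.34% of those called lower. A match is a run of letters and no evidence of binding. The 120 bases before the start are given 5' to 3' on the gene's strand, with the element in capitals. Chgb lies on the plus strand (chr2:132781522-132781641), Scg2 on the minus strand (chr1:79440027-79440146), Pcsk1 on the plus strand (chr13:75089737-75089856) and Th on the minus strand (chr7:142899996-142900115).
Chgb: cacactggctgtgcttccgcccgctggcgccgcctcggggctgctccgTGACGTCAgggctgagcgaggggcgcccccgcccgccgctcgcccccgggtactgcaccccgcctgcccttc
Scg2: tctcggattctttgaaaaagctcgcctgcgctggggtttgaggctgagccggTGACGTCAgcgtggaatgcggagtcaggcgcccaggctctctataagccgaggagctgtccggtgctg
Pcsk1: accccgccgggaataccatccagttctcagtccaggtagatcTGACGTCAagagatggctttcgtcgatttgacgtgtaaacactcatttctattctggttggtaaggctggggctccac
Th: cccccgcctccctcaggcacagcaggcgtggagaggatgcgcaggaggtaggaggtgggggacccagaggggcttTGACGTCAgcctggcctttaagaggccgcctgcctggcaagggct
The first base of the element lies 72 bases before the start in Chgb, 68 in Scg2, 78 in Pcsk1 and 45 in Th.

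Among the transcription factors, Gata3, which chromaffin cells need to develop, had 1.4, 0.763, 0.968 and 1.28 CPM in cKO and 15.1, 12.3, 15.7 and 17.2 CPM in controls (log2 fold change -3.77 ± 0.26 SE, adjusted p = 4.52e-10). In the release machinery, the calcium sensor Syt7 had 4.05, 2.43, 3.58 and 2.56 CPM in cKO and 34.7, 29.98, 33.3 and 34.3 CPM in controls (log2 fold change -3.39 ± 0.18 SE, adjusted p = 3.27e-11), and the fusion protein gene Snap25 fell by 2.95 on the log2 scale. Its partners Stx1a and Vamp2, which many cell types express, did not pass the test, at 17.9 ± 1.76 CPM in cKO and 17.2 ± 2.62 CPM in controls for Stx1a and 177 ± 19 CPM in cKO and 183 ± 13.3 CPM in controls for Vamp2 (SD, n = 4 each; adjusted p = 0.8 and 0.654). Chrna3, a subunit of the nicotinic receptor through which splanchnic nerves drive secretion, had 2.45, 1.45, 1.5 and 2.51 CPM in cKO and 10.4, 14.2, 16.6 and 18.3 CPM in controls (log2 fold change -2.91 ± 0.27 SE, adjusted p = 2.55e-08). Gria2, a glutamate receptor subunit, had 1.08, 0.391, 0.992 and 1.08 CPM in cKO and 12.2, 10.3, 11.3 and 14.3 CPM in controls (log2 fold change -3.77 ± 0.26 SE, adjusted p = 3.17e-10).

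**Figure D3:**
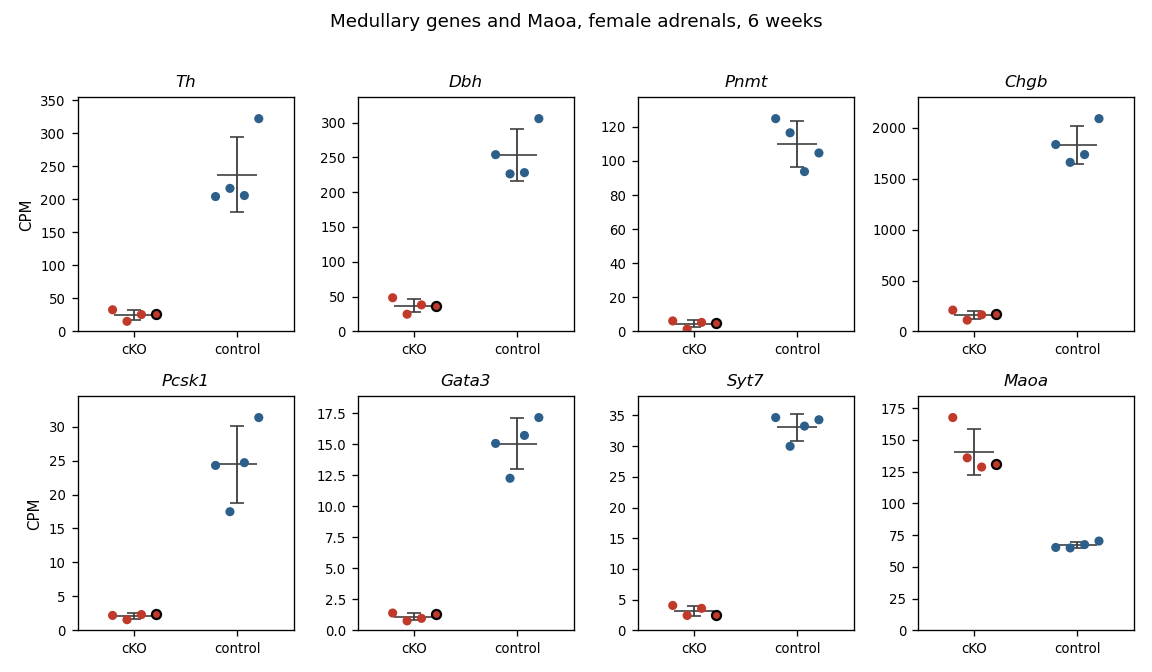
CPM (y axis, from 0) of 7 medullary genes and of the catecholamine-degrading enzyme Maoa in the 4 cKO (left) and 4 control (right) libraries; each point is 1 mouse, the bar is the mean with its SD, and cKO replicate 4 is outlined. Th, Dbh, Pnmt, Chgb, Pcsk1, Gata3 and Syt7 are lower in every cKO library than in every control, and Maoa is higher.

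Glial genes of the medulla and nerves fell too, 13 of 18 tested, and 3 rose. Over all tested genes, 19.1% were lower and 14.2% higher. The glial list had a median log2 fold change of -1.49. Sox10, the transcription factor of Schwann and sustentacular cells, had 0.343, 0.528, 0.194 and 0.596 CPM in cKO and 1.71, 2.57, 2.54 and 1.86 CPM in controls (log2 fold change -2.37 ± 0.40 SE, adjusted p = 7.14e-05). S100b had 0.206, 0.274, 0.266 and 0.243 CPM in cKO and 1.22, 0.89, 1.02 and 1.61 CPM in controls (log2 fold change -2.25 ± 0.38 SE, adjusted p = 8.19e-05), and the glial cadherin gene Cdh19 fell by 2.36 on the log2 scale. Mbp, known for its myelin protein but with other transcripts in blood cells, was higher in cKO at 37.1, 21.5, 24 and 20.5 CPM, against 14.1, 15.3, 16.8 and 19.98 CPM in controls, and was not called without cKO replicate 1 (adjusted p = 0.0602). Of 24 axon guidance genes, 15 fell and none rose, beside the same 19.1% and 14.2% of all tested genes. Ntn1, which encodes netrin 1, had 14.2, 14.6, 15.2 and 10.9 CPM in cKO and 37.1, 45.4, 38.4 and 46.4 CPM in controls (log2 fold change -1.61 ± 0.13 SE, adjusted p = 2.39e-09). Slit2, a repellent of growing axons, had 5.29, 5.73, 4.02 and 4.99 CPM in cKO and 17.8, 16.9, 20.9 and 21.3 CPM in controls (log2 fold change -1.94 ± 0.19 SE, adjusted p = 4.88e-08). Dcc, a netrin receptor, had 2 counts over the 4 cKO libraries and 199 over the controls, a ratio of control over cKO of 105.5 with a 95% counting interval of 28.8 to 877.

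Cell cycle genes did not move as a block at this age. Of 30 tested genes, 6 rose and 1 fell, beside 14.2% higher and 19.1% lower over all tested genes. Ccnd3, which encodes cyclin D3, had 1086, 1336, 1150.2 and 1223 CPM in cKO and 679, 661, 645 and 660.4 CPM in controls (log2 fold change 0.86 ± 0.09 SE, adjusted p = 1.3e-07). Ccnd2, which encodes cyclin D2, fell to 235, 200.4, 201 and 202 CPM in cKO, against 374, 432, 496 and 378 CPM in controls (log2 fold change -1.0 ± 0.10 SE, adjusted p = 8.38e-08). Their kinase partner Cdk4 rose by 0.45 and the replication genes Mcm7 and Pcna by 0.42 and 0.38 on the log2 scale. Mki67, made in dividing cells, had 36, 36.5, 76.1 and 66.3 CPM in cKO and 53.7, 42.4, 43.9 and 40.2 CPM in controls. Replicates 3 and 4 of cKO lay above every control and replicates 1 and 2 below every control, and the difference did not pass the test (adjusted p = 0.641).

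Among 25 inhibitors of cyclin-dependent kinases and p53 targets, 6 rose and 3 fell, beside 14.2% and 19.1% of all tested genes. The fits that left out 1 library gave 1 to 4 falls, with 1 without cKO replicate 1, cKO replicate 3 or control replicate 1. Cdkn2c, which encodes the inhibitor p18, had 51.9, 52.5, 53.7 and 56.1 CPM in cKO and 38.3, 41.5, 36.7 and 32.7 CPM in controls (log2 fold change 0.52 ± 0.08 SE, adjusted p = 1.36e-05). Cdkn1b, which encodes p27, moved the other way, at 34.1, 30.9, 36.2 and 28.3 CPM in cKO and 60.5, 49.2, 65.4 and 116 CPM in controls (log2 fold change -1.17 ± 0.19 SE, adjusted p = 4.33e-05). Trp53, Bax and Glb1, which encode p53, a promoter of apoptosis and the lysosomal beta-galactosidase used in senescence staining, rose by 0.32, 0.48 and 0.45 on the log2 scale, each with no overlap between the groups.

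Of 19 tested genes in a joint list of the IGF axis and imprinted growth genes, 10 fell and 1 rose. All 8 fits that left out 1 library gave the same counts, beside 19.1% lower and 14.2% higher over all tested genes. Dlk1, expressed in the outer cortex and in chromaffin cells, had 36.3, 16.8, 29.5 and 26.9 CPM in cKO and 291, 276, 267 and 337 CPM in controls (log2 fold change -3.42 ± 0.26 SE, adjusted p = 1.49e-09). Meg3, a long non-coding RNA next to Dlk1 in the genome, had 109, 66.6, 174 and 176 CPM in cKO and 836, 861, 879 and 960.2 CPM in controls (log2 fold change -2.75 ± 0.24 SE, adjusted p = 7.84e-09). Mest, an imprinted hydrolase gene, had 16.1, 9.39, 15.7 and 7.43 CPM in cKO and 65.9, 58, 84.3 and 78.4 CPM in controls (log2 fold change -2.56 ± 0.21 SE, adjusted p = 3.68e-09), and the zinc finger gene Peg3 fell by 1.69 on the log2 scale. Igf2 was low in every library and fell to 0.084 ± 0.0551 CPM in cKO, against 0.84 ± 0.273 CPM in controls (SD, n = 4 each). Among the binding proteins of IGF, Igfbp5 had 49.1, 90.6, 77.1 and 95.6 CPM in cKO and 172, 199, 254 and 232 CPM in controls (log2 fold change -1.46 ± 0.20 SE, adjusted p = 4.9e-06), and Igfbp7 rose (log2 fold change 0.59 ± 0.15 SE, adjusted p = 0.00379).

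Genes of the macrophage lists moved in both directions, and cKO replicate 4 had the highest level of many of them. Of 21 genes of lipid-laden and fusing macrophages, 9 rose and 5 fell, beside 14.2% higher and 19.1% lower over all tested genes. Without cKO replicate 4, 9 rose. Gpnmb, a marker of lysosome-rich macrophages, had 26.2, 37.5, 46.1 and 317 CPM in cKO and 0.333, 1.35, 0.166 and 0.702 CPM in controls. Every cKO library lay above every control, its log2 fold change was 7.39 ± 1.05 SE, and this was 5.85 without cKO replicate 4 and 8.04 without control replicate 2. Atp6v0d2, a proton pump subunit of macrophages and osteoclasts, had 3.57, 7.28, 6.22 and 37.6 CPM in cKO and 0.0889, 0.144, 0.214 and 0.113 CPM in controls, with a log2 fold change of 6.59 and of 5.33 without cKO replicate 4. The lectin gene Lgals3 and the elastase gene Mmp12 had log2 fold changes of 2.82 and 3.36, and of 1.79 and 2.25 without that library. Apoe, the lipid carrier, had 851, 962, 689 and 1502 CPM in cKO and 309, 559, 415 and 410 CPM in controls (log2 fold change 1.24 ± 0.30 SE, adjusted p = 0.00244). Among the 5 members that fell, Cd36, a fatty acid scavenger receptor, had 65, 79.7, 77.8 and 159 CPM in cKO and 215, 202, 186 and 177 CPM in controls (log2 fold change -1.03 ± 0.19 SE, adjusted p = 0.000224). Spp1, which encodes osteopontin, had 6.02, 6.88, 4.5 and 21 CPM in cKO and 27.3, 57.4, 17.2 and 51 CPM in controls; its log2 fold change was -1.99, and -2.72 without cKO replicate 4. Ctsl, a lysosomal protease, had 94.6, 87.8, 92.5 and 152 CPM in cKO and 296, 280.2, 244 and 406 CPM in controls (log2 fold change -1.52 ± 0.20 SE, adjusted p = 3.7e-06). In controls, Apoe, Cd36 and Ctsl were read far above the general macrophage markers Cd68 and Csf1r given below. Which cells the reads of these 3 genes came from was not tested, so their changes cannot be assigned to macrophages.

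Counts of general macrophage markers depended on single libraries. Of 26 tested, 8 rose and 4 fell, beside 14.2% higher and 19.1% lower over all tested genes. The rises were 1 without cKO replicate 4, 3 without control replicate 1 and 5 without control replicate 4. Cd68, a lysosomal protein of all macrophages, had 17.7, 23.1, 26.1 and 79.6 CPM in cKO and 12.2, 17.2, 15.4 and 12.9 CPM in controls (log2 fold change 1.34 ± 0.37 SE, adjusted p = 0.00654), and its log2 fold change was 0.63 without cKO replicate 4 (adjusted p = 0.0852). Csf1r, the receptor for the macrophage growth factor, had 41, 40.3, 36.6 and 35.8 CPM in cKO and 35.4, 49.4, 46.5 and 41.7 CPM in controls, and Adgre1, which encodes F4/80, had 16, 18, 13.9 and 10.8 CPM in cKO and 7.06, 16.4, 13.9 and 13 CPM in controls. Both overlapped between the groups and did not pass the test (adjusted p = 0.294 and 0.509). The 4 members of this list that fell were Cd163, Lyve1, F13a1 and Axl. Cd163, a haemoglobin scavenger receptor, was at 0.869, 1.06, 0.871 and 0.971 CPM in cKO and 1.64, 3.42, 1.95 and 4.49 CPM in controls (log2 fold change -1.60 ± 0.42 SE, adjusted p = 0.00482), and F13a1, a transglutaminase subunit gene, was at 0.904 to 3.05 CPM in cKO and 6.09 to 10.4 CPM in controls (log2 fold change -2.04 ± 0.45 SE, adjusted p = 0.0011). The summed level of the 26 markers was 556 to 1035 CPM in cKO and 392.5 to 634.5 CPM in controls, and the groups overlapped; their part in the changes of the lipid-laden macrophage list was not tested.

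**Figure D4:**
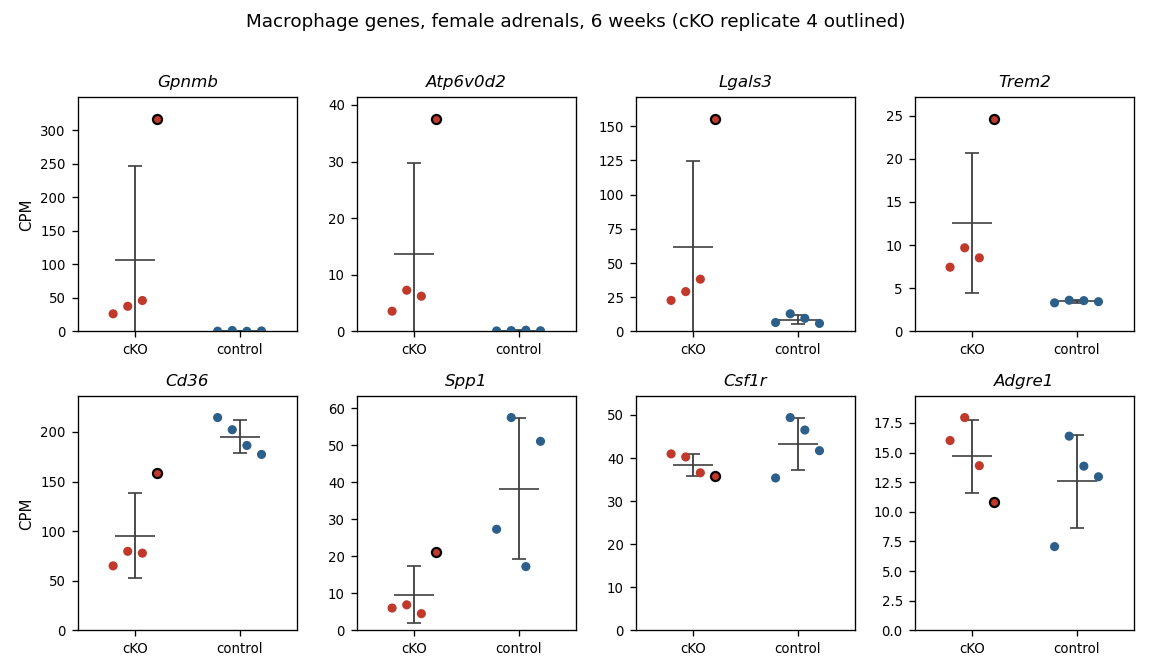
CPM (y axis, from 0) of 8 genes of the macrophage lists in the 4 cKO (left) and 4 control (right) libraries; each point is 1 mouse, the bar is the mean with its SD, and cKO replicate 4 is outlined. That library is the highest of the 8 for Gpnmb, Atp6v0d2, Lgals3 and Trem2, at 317, 37.6, 156 and 24.6 CPM, and lies within the range of the other libraries for Csf1r and Adgre1.

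Few genes of the dendritic cell, lymphocyte and interferon lists were called, beside 14.2% higher and 19.1% lower over all tested genes. The summed level of the lymphocyte genes was nevertheless higher in every cKO library, at 163 to 245 CPM, against 95.1 to 134 CPM in controls. The summed levels of the dendritic cell and interferon lists overlapped between the groups. Of 15 genes for MHC class II and dendritic cells 1 fell, of 24 lymphocyte genes 1 rose (2 without cKO replicate 1 or control replicate 2), and of 20 interferon-stimulated genes 1 fell, or none without cKO replicate 1, cKO replicate 4 or control replicate 1. Of 28 secreted inflammatory factors, 5 rose and 7 fell, beside 14.2% higher and 19.1% lower over all tested genes. Over the fits that left out 1 library 2 to 6 rose, with 3 without cKO replicate 4, control replicate 2 or control replicate 4 and 2 without control replicate 1. Il1b, an inflammatory cytokine, fell to 0.503, 0.548, 0.145 and 0.221 CPM in cKO, against 0.778, 1.52, 1.05 and 1.02 CPM in controls (log2 fold change -1.60 ± 0.33 SE, adjusted p = 0.000597). Of 10 tested neutrophil and mast cell genes, 1 rose and 4 fell, beside 14.2% higher and 19.1% lower over all tested genes. The falls were 2 without cKO replicate 2 or cKO replicate 4 and 1 without control replicate 4. Mast cell protease genes were read mainly in control replicates 3 and 4. Cpa3 had 0.595, 0.391, 0.121 and 0.176 CPM in cKO and 1, 0.89, 4.42 and 8.36 CPM in controls; its log2 fold change was -3.49, and -2.69 without control replicate 4. Tpsb2 had a log2 fold change of -2.98 (adjusted p = 0.0261), of -3.85 without cKO replicate 1 and of -2.12 without control replicate 4, where it was not called (adjusted p = 0.127), and it was called in 3 of the 8 fits that left out 1 library. Kit, the stem cell factor receptor that mast cells also carry, moved against these proteases, with 66.4, 56, 42.2 and 53.5 CPM in cKO and 8.02, 6.62, 8.24 and 12.2 CPM in controls (log2 fold change 2.63 ± 0.23 SE, adjusted p = 7.84e-09). Complement genes were split, 8 higher and 5 lower of 21, beside the same 14.2% and 19.1% of all tested genes. Without cKO replicate 4 or without control replicate 1, 4 were higher. C4b, an early component, had 189, 201, 194 and 235 CPM in cKO and 123, 147, 117 and 126 CPM in controls (log2 fold change 0.68 ± 0.11 SE, adjusted p = 3.76e-05). Cd55, a regulator that protects host cells, was lower, at 1.12, 0.626, 1.33 and 1.48 CPM in cKO and 12.4, 10.8, 7.82 and 12.5 CPM in controls (log2 fold change -3.26 ± 0.24 SE, adjusted p = 1.01e-09).

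Stromal genes were lower and vascular genes slightly so. Of 21 fibroblast and matrix genes, 15 fell and none rose, beside 19.1% lower and 14.2% higher over all tested genes. The list's median log2 fold change was -1.09. Its summed level was 395 to 542 CPM in cKO and 934 to 1247 CPM in controls. Postn, a matrix protein of the capsule, and Dcn, a small proteoglycan, had log2 fold changes of -2.09 ± 0.21 and -1.67 ± 0.26 (± SE). Gsn, an actin-binding protein, had 83.7, 80.01, 102 and 88.7 CPM in cKO and 248, 315, 250.1 and 364 CPM in controls (log2 fold change -1.73 ± 0.19 SE, adjusted p = 2.22e-07). Of 25 endothelial and pericyte genes, 13 fell and 1 rose, beside the same shares of all tested genes. The changes were small (median log2 fold change -0.30). Kdr, the main receptor for VEGF, had 143, 158, 144 and 106 CPM in cKO and 204, 206, 181 and 227 CPM in controls (log2 fold change -0.57 ± 0.11 SE, adjusted p = 0.000329), and Plvap, a protein of fenestrated vessels, rose by 0.35 on the log2 scale. Collagens were split, with 11 lower and 3 higher of 23, beside 19.1% lower and 14.2% higher over all tested genes. The basement membrane chains Col4a5 and Col4a6, encoded side by side on the X chromosome, were both higher. Col4a6 had 74.8, 58.5, 58.9 and 38.4 CPM in cKO and 10.3, 4.96, 6.75 and 8.18 CPM in controls (log2 fold change 2.93 ± 0.31 SE, adjusted p = 1.49e-07), and Col4a5 had 161 ± 20.9 CPM in cKO and 62.6 ± 6.44 CPM in controls (SD, n = 4 each). Col27a1, a fibrillar collagen, fell to 6.93, 2.97, 4.45 and 3.86 CPM in cKO, against 30.4, 28.1, 24.5 and 39.1 CPM in controls (log2 fold change -2.75 ± 0.24 SE, adjusted p = 1.17e-08).

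Nuclear genes of oxidative phosphorylation were higher by small amounts, 19 of 27 tested with none lower (median log2 fold change 0.22). Uqcrc2, a subunit of complex III, had 255, 269.6, 252 and 279.6 CPM in cKO and 214, 226, 216 and 211 CPM in controls (log2 fold change 0.28 ± 0.04 SE, adjusted p = 2.35e-05). Atp5o, a subunit of the ATP synthase, rose by 0.37 on the log2 scale. The mitochondrially encoded mt-Nd1 was lower, at 4082, 3670.2, 3726 and 4885 CPM in cKO and 6483, 6011, 5325 and 4616 CPM in controls; the groups overlapped, and it was called in 3 of the 8 fits that left out 1 library (log2 fold change -0.46 ± 0.16 SE, adjusted p = 0.032). The share of all counts from mitochondrial genes was 3.54% ± 0.504 in cKO and 4.43% ± 0.359 in control libraries (SD, n = 4 each; exact permutation test, two-sided p = 0.0571). Of 19 immediate early genes 3 rose and none fell, against 1 and 2 without cKO replicate 4, beside 14.2% higher and 19.1% lower over all tested genes. Fosl2, a component of AP-1, had 1247, 1182, 1214 and 1208 CPM in cKO and 622, 737, 578 and 667 CPM in controls (log2 fold change 0.90 ± 0.13 SE, adjusted p = 8.8e-06). Of 18 circadian clock genes, 1 rose and 2 fell, beside 14.2% higher and 19.1% lower over all tested genes. The rises were 4, 2 and 3 without cKO replicate 2, cKO replicate 4 and control replicate 2, and the falls were 4 without cKO replicate 2 and 1 without cKO replicate 1, 3 or 4 or control replicate 3 or 4. Of 19 genes of the unfolded protein response, 1 rose (2 without cKO replicate 3) and 4 fell, beside the same 14.2% and 19.1% of all tested genes.

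Several of the largest rises were in genes outside the lists. Mgat4c, which encodes a glycosyltransferase, had 669, 696, 370.3 and 539 CPM in cKO and 14.4, 13.7, 53.1 and 7.86 CPM in controls; its log2 fold change was 4.68 ± 0.47 SE, and 5.57 without control replicate 3, the highest control. Nxph1, which encodes a secreted ligand of neurexins, had 38.8, 19.6, 13.4 and 12.5 CPM in cKO and 0.666, 0.626, 1.09 and 3.19 CPM in controls, with a log2 fold change of 3.91, and of 4.72 without control replicate 4. Cyp7a1, known in liver as the rate-limiting enzyme of bile acid synthesis, had 5.58, 2.23, 4.38 and 1.15 CPM in cKO and 0.133, 0.12, 0.119 and 0.0453 CPM in controls (log2 fold change 4.96 ± 0.77 SE, adjusted p = 2.58e-05). Unc13c, a priming factor of vesicle release, rose to 19.3, 16.6, 12.2 and 15.2 CPM in cKO, against 2.31, 3.46, 1.69 and 3.44 CPM in controls (log2 fold change 2.53 ± 0.33 SE, adjusted p = 2.36e-06). Among abundant genes, Mgarp, a mitochondrial protein of steroidogenic cells, had 2524, 2407, 1842 and 2157 CPM in cKO and 804, 768, 981 and 666 CPM in controls (log2 fold change 1.47 ± 0.18 SE, adjusted p = 1.2e-06). Adh1, an alcohol dehydrogenase, had 9126, 8416, 8664 and 10011 CPM in cKO and 6365, 7004, 7049 and 6012 CPM in controls (log2 fold change 0.45 ± 0.08 SE, adjusted p = 0.000202).

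The effect at 6 weeks was compared with the effect at later ages in females by an interaction test in the same fit of 24 female libraries. Of the genes higher at 6 weeks, 67.0% were also higher in cKO at 9 weeks and 44.7% at 12 weeks; of those lower, 80.0% and 66.9% were also lower. For scale, 14.6% of all tested genes were higher and 20% lower at 9 weeks, and 9.11% higher and 16% lower at 12 weeks. The effects at 6 and 9 weeks differed for 12 genes (0.0644% of those tested), all of them more negative at 6 weeks. Vsnl1 had log2 fold changes of -3.59 ± 0.22 at 6 weeks, -1.89 ± 0.21 at 9 weeks and -1.69 ± 0.20 at 12 weeks (± SE), and the difference between 6 and 9 weeks was -1.70 ± 0.29 SE, adjusted p = 0.0257. For Pik3c2g the difference from 9 weeks was -4.26 ± 0.67 SE, adjusted p = 0.0128. The effects at 6 and 12 weeks differed for 60 genes (0.322%), 59 of them more negative at 6 weeks (0.316%) and 1 less so (0.00536%). DESeq2 called 10 positive and 85 negative differences for 9 weeks and 54 positive and 237 negative for 12 weeks. Rspo3 was among these, with log2 fold changes of -3.61 ± 0.30 at 6 weeks, -2.19 ± 0.28 at 9 weeks and -1.69 ± 0.27 at 12 weeks (difference from 12 weeks -1.92 ± 0.39 SE, adjusted p = 0.0338). These counts shift with single libraries: leaving out 1 library of this age gave 5 to 20 genes for 9 weeks and 16 to 80 for 12 weeks. The count for 9 weeks was 5 without cKO replicate 2, cKO replicate 3, control replicate 3 or control replicate 4, 6 without control replicate 1 and 20 without control replicate 2. The count for 12 weeks was 28, 38, 16 and 29 without cKO replicate 2, cKO replicate 4, control replicate 3 and control replicate 4.

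The effect in 6-week females was also compared with that in 6-week males of the same genotypes, fitted together over 16 libraries. The male effects and the differences come from this joint fit. The female effects given beside them come from the fit of 24 female libraries, so the SEs need not combine. The sexes were in separate count tables, and the male libraries held 12431963 to 17896510 counts in cKO and 13943448 to 18316036 counts in controls, so sex, table and depth cannot be told apart in this contrast. Of genes higher in females, 25.2% were also higher in males and 46 were lower; of genes lower in females, 47.0% were also lower in males and 102 were higher. For scale, 9.56% of genes tested there were higher and 13.4% lower in males. The effects differed for 1349 genes (7.63% of 17681), more positive in females for 451 (2.55%) and more negative for 898 (5.08%). The count of more positive effects was 207 without cKO replicate 1, 183 without control replicate 1, 151 with the replicate block and 704 with DESeq2, and that of more negative effects was 1026, 1028, 508 and 1302 under the same 4 settings. Chgb fell in both sexes, with log2 fold changes of -3.48 ± 0.29 in females and -3.47 ± 0.28 in males (± SE). The effects on Shh and Notum were more negative in females, with Shh at -2.35 ± 0.24 in females and -0.37 ± 0.24 in males (difference -1.98 ± 0.35 SE, adjusted p = 0.00327) and Notum at -2.38 ± 0.25 in females and -0.37 ± 0.26 in males (difference -2.01 ± 0.38 SE, adjusted p = 0.00469). Scube1 was at 3.03 ± 0.29 in females and -0.24 ± 0.22 in males (difference 3.27 ± 0.30 SE, adjusted p = 2.73e-05). Mgat4c rose in females and fell in males, at 4.68 ± 0.47 and -3.33 ± 0.70 (difference 8.01 ± 0.79 SE, adjusted p = 5.41e-05), and Cdh13, a cadherin gene, differed in the same direction (difference 3.70 ± 0.34 SE, adjusted p = 2.73e-05). C4b was likewise higher in cKO females, at 0.68 ± 0.11, and lower in cKO males, at -1.32 ± 0.29 (difference 2.01 ± 0.41 SE, adjusted p = 0.00733). In the endothelial list, 15 of 25 members had a more negative effect in females, among them Pecam1, an adhesion molecule of the vessel wall, at -0.27 ± 0.06 in females and 0.69 ± 0.07 in males (difference -0.94 ± 0.10 SE, adjusted p = 8.06e-05). Cd36 fell in females and rose in males, at -1.03 ± 0.19 and 1.21 ± 0.30 (difference -2.23 ± 0.42 SE, adjusted p = 0.00516). Gjb2 had a difference of -5.20, with 0.328 ± 0.0501 CPM in cKO and 11.3 ± 3.27 CPM in control females, and low levels in males, at 0.548 ± 0.248 CPM in cKO and 0.478 ± 0.284 CPM in controls (SD, n = 4 each). Aldh1a1, which encodes a retinal dehydrogenase, had a difference of -5.83, with 12.9 ± 4.15 CPM in cKO and 33.4 ± 6.48 CPM in control females. In males it was higher in cKO, at 332 ± 292 CPM, against 15.0 ± 3.92 CPM in controls (SD, n = 4 each).

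**Figure D5:**
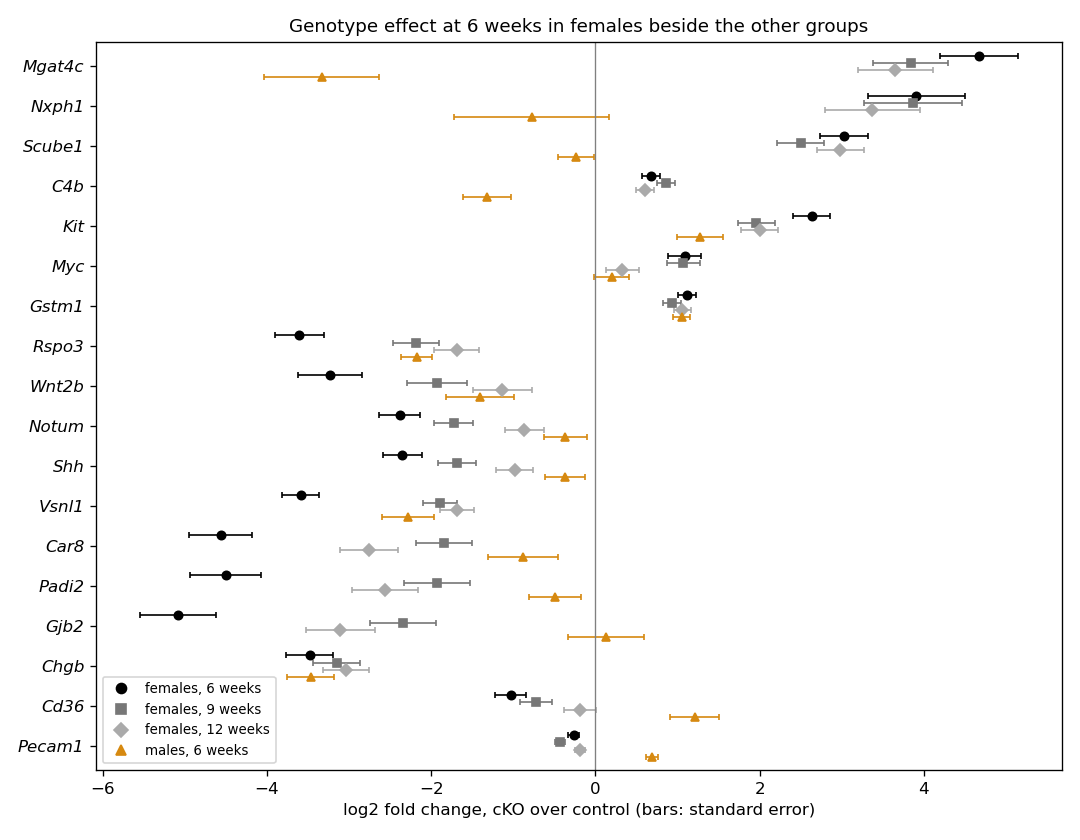
Log2 fold changes of cKO over control (x axis, bars are standard errors) for 18 genes in females at 6, 9 and 12 weeks and in males at 6 weeks; each point comes from 4 cKO and 4 control libraries. Mgat4c and C4b lie right of 0 in females and left of 0 in males, and Cd36 and Pecam1 lie left of 0 in 6-week females and right of 0 in males. Female values come from the fit of 24 female libraries and male values from the joint fit of 16 libraries.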

How the data were processed

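RNA of whole adrenal glands was read as directional poly(A) libraries, per the labels' protocols. The submitters' processing notes name GRCm38, STAR 2.7.6a, cutadapt 1.16, RSEM 1.6.3, featureCounts and DESeq2 1.30.1, with no role or order. The deposited values were whole-number counts per gene made by the authors, not normalized, over 55487 genes. How reads shared between genes were counted was not given in the sources used here. Symbols came from GENCODE M21 (GRCm38), and 99.5% of identifiers matched.

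The counts were fitted in R 4.3.3 with edgeR 4.0.16 (limma 3.58.1), TMM scaling, filterByExpr with a minimum count of 10 and the quasi-likelihood test. All 24 female libraries entered 1 fit of 18645 genes, and the sexes at 6 weeks were fitted together over 17681 genes. P-values were adjusted by Benjamini-Hochberg over all genes of a fit, at a threshold of 0.05. Differences between ages and sexes were interaction contrasts. Each SE of a log2 fold change or difference is its absolute value divided by the square root of the test's F statistic. It was derived from the test and not estimated by the fit. On simulated counts for the 6-week comparison over 18645 genes, 36% of 1.5-fold, 58% of 2-fold, 88% of 4-fold and 72% of 0.5-fold changes were recovered. Of the 137 genes called there, 10 were unchanged ones. Far fewer genes were changed in the simulation than were called in the data, so these shares need not hold for the data. DESeq2 1.42.0, RLE factors, 2 other filters, a replicate block, a fit of only the groups compared, a minimum fold and leaving out each library were the alternatives.

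The gene lists, 38 in all, and the members were chosen with earlier results of these data known. Outside the lists, genes were taken from the 15 largest rises and 15 largest falls with groups apart and an average log2 CPM of at least 1, the 10 largest changes in mean CPM each way, and the 6 largest interactions each way. A few list members enter the counts but are not reported here by name. The labels call the mice independent. Intervals and the floor of 3 counts cover counting error only.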

Additional observations from a re-analysis of the deposited data

Results flagged for a closer look

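Among 292 groups of 4 libraries, 29 held 1 library whose gap to its nearest neighbour passed Dixon's 95% critical value for 4 samples; chance flags about 1 in 20 groups. The library farthest from its group was cKO replicate 4 for 10 of them and control replicate 4 for 10. For cKO replicate 4 this was Ptch1 at 23.6 CPM, Gpnmb at 317 CPM, Atp6v0d2 at 37.6 CPM, Trem2 at 24.6 CPM, Lgals3 at 156 CPM, Mmp12 at 164 CPM, Cd68 at 79.6 CPM, Ctsl at 152 CPM, Cd36 at 159 CPM and Spp1 at 21.04 CPM. For cKO replicate 1 this was Pik3c2g at 11.9 CPM, Gclm at 94.6 CPM and Ccnd2 at 235 CPM. For cKO replicate 2 this was Gria2 at 0.391 CPM. For cKO replicate 3 this was F5 at 0.266 CPM. For control replicate 4 this was Wnt10a at 0.951 CPM, Sfrp2 at 0.408 CPM, Cacna1d at 22.6 CPM, Akr1c18 at 3199 CPM, Car8 at 112 CPM, Th at 322 CPM, Snap25 at 24.2 CPM, Stx1a at 13.3 CPM, Vamp2 at 203 CPM and Cyp7a1 at 0.0453 CPM. For control replicate 3 this was Pecam1 at 110 CPM and Mgat4c at 53.1 CPM. For control replicate 2 this was Padi2 at 16.5 CPM and Bax at 54.0 CPM. 

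Several genotype effects differed between groups by the interaction test. The effect at 6 weeks minus effect at 12 weeks was, on the log2 scale, -1.92 for Rspo3, -1.90 for Vsnl1, -1.08 for Syt7, -0.98 for Ntn1 and -4.69 for F5. The effect at 6 weeks minus effect at 9 weeks was, on the log2 scale, -1.70 for Vsnl1, -4.26 for Pik3c2g and -2.72 for Car8. The effect in 6-week females minus that in 6-week males was positive for 12 and negative for 31 of the genes given with values. The positive differences (log2) were 3.27 for Scube1, 1.27 for Nr0b1, 1.19 for Ccnd3, 1.37 for Kit, 2.01 for C4b, 0.37 for Uqcrc2, 8.01 for Mgat4c, 4.69 for Nxph1, 1.96 for Unc13c, 2.29 for Adh1, 0.76 for Mgarp and 3.70 for Cdh13. The negative differences (log2) were -1.43 for Rspo3, -0.86 for Fzd2, -1.22 for Wnt6, -0.84 for Nkd1, -2.01 for Notum, -1.98 for Shh, -1.54 for Hhip, -1.13 for Tcf21, -3.67 for Car8, -5.20 for Gjb2, -4.0 for Padi2, -0.59 for Nr3c1, -3.26 for Plin4, -1.96 for Gpx3, -3.44 for Gsta3, -0.56 for Cpe and -0.90 for Ntn1. Further negative differences (log2) were -1.07 for Cdkn1b, -1.16 for Meg3, -1.07 for Mest, -1.24 for Igfbp5, -2.10 for Ctsl, -2.23 for Cd36, -3.54 for Spp1, -0.69 for Csf1r, -0.76 for Kdr, -0.88 for Sox17, -0.94 for Pecam1, -1.59 for Col27a1, -5.89 for F5 and -5.83 for Aldh1a1. Sex, count table and depth cannot be told apart in these values.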

How the results depend on the processing

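The 6220 genes called at 6 weeks became 2035 against a minimum change of 1.5-fold and 5391 to 6103 when 1 library was left out; DESeq2 gave 6698 and a fit of only the 8 libraries 4867. The difference between 6 and 9 weeks (12 genes) gave 95 with DESeq2, 42 with only the groups compared and 5 to 20 without 1 library. The difference between 6 and 12 weeks (60 genes) gave 291 with DESeq2, 15 with only the groups compared and 16 to 80 without 1 library. The difference between the sexes (1349 genes) gave 970 to 1495 without 1 library. Replicate numbers were shared between the groups, but same-numbered libraries did not deviate together (correlations -0.0201, -0.279, -0.128 and -0.213 over 10475 genes). Pairs with unlike numbers had correlations of -0.201 to 0.446, the highest for cKO replicate 4 with control replicate 2. Whether libraries with unlike numbers shared a litter or a batch was not tested. With the replicate block the counts were 5979 at 6 weeks, 35 for 6 against 12 weeks and 659 for the sexes. The cause of these shifts was not tested. Among 146 genes given with values, DESeq2, RLE scaling and the block changed no call or direction. Leaving out 1 library turned the sign only of genes that had not been called, with log2 fold changes of -0.11 to 0.00063 for Wnt4, -0.061 to 0.64 for Kcnj5, -0.043 to 0.12 for Stx1a and -0.10 to 0.012 for Vamp2. Calls were lost in 19 gene and library pairs, in 2 genes without the low-count filter and in 3 with only the groups compared. Among list counts, 47 moved by over 1.5 times without 1 library. Depth limits genes near 0.0581 to 0.0742 CPM, the level of 3 counts in these libraries.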
